A study of Mus musculus with 6 samples.

Results

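The genes described here are 31 members of the NRF2, glutathione and xenobiotic metabolism pathways, taken by symbol from a table of 24043 rows, and all 31 had a row. They were followed in 6 RNA-seq libraries of mouse esophageal basal cells. All mice carried Krt15-CrePR1, a Cre recombinase that the keratin 15 promoter expresses and RU486 (mifepristone) switches on, and R26mTomato/mGFP, a reporter that turns from Tomato to GFP on recombination. All received 1 mg of RU486, and 24 h later the CD29-high cells (CD29 is integrin beta-1) were sorted. The 3 libraries called Krt15-negative came from GFP-negative cells and the 3 called Krt15-positive from GFP-positive cells of this same genotype and treatment. GFP records recombination, so the negative gate also takes cells whose promoter was active but did not recombine. Strain, age and sex are not stated in these sources. Values are FPKM, fragments per kilobase of transcript and per M of mapped fragments (M, mega), so levels can be set side by side between genes per length.

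NRF2, encoded by Nfe2l2, is a transcription factor that is held low by Keap1, the adaptor through which a cullin ligase marks it for degradation. Electrophiles and oxidants disable Keap1, and NRF2 then binds antioxidant response elements with small Maf proteins and raises enzymes that make glutathione, supply NADPH and detoxify quinones and aldehydes. Glutathione transferases join glutathione to reactive compounds, and cytochromes P450 oxidize foreign compounds, sometimes into reactive ones. The esophagus is a known site of this pathway: mice without Keap1 develop a thickened, overkeratinized esophageal lining.

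The response element that NRF2 binds was looked for in RefSeq promoter windows (build GRCm38.p6) of 300 bases, from 250 before to 50 after a gene start. The letters searched were TGACNNNGC on both strands. They start with TGAC, as does the AP-1 site TGACTCA, which none of the matches below holds in full. Windows were on hand for 26 of the 31 genes, and not for Aldh3a1, Gclc, Gsr, Gsta4 and Hmox1. The element was in 8 of 26 (30.8%), where 14% of the 27025 genes in the table held it. These matches are a description of letters, not of binding. In G6pdx (TGACTGAGC), Gclm (TGACGGTGC), Gsta3 (TGACATTGC), Gstm5 (TGACCACGC), Nfe2l2 (TGACTCCGC) and Txnrd1 (TGACAAAGC) it lay before the start, at 57, 134, 121, 42, 240 and 92 bases. In Pgd (TGACATTGC) and Srxn1 (TGACCTAGC) it began 4 and 29 bases after it. All these positions count from the start that each window was drawn around, which need not be the outermost RefSeq start of the gene. The windows of Txnrd1 and Pgd lay past the outermost start, inside the annotated gene. Stretches are shown for the 3 genes of highest mean FPKM among those with the element before the start. These are the regulator itself, a glutathione synthesis gene and a transferase. Each stretch ends before the outermost RefSeq start of the gene, which leaves 180 bases in Gclm and 230 in Gsta3. The distances of 134 and 121 bases given for Gclm and Gsta3 therefore do not count to the end of the stretch. The stretches run 5′ to 3′ along the gene, with the element in capitals, and in Gclm the element reads on the opposite strand. Nfe2l2 is at chr2:75704664-75704913 (minus strand), Gclm at chr3:122245307-122245486 (plus strand) and Gsta3 at chr1:21240335-21240564 (plus strand).
Nfe2l2: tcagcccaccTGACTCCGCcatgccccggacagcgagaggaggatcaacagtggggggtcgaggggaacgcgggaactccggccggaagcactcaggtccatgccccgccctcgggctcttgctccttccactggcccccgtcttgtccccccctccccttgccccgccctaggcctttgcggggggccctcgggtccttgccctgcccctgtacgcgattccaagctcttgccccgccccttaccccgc
Gclm: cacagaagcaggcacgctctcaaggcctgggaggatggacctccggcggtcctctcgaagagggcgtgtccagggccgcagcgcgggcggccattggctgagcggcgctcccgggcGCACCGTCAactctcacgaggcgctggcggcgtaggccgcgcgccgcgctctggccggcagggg
Gsta3: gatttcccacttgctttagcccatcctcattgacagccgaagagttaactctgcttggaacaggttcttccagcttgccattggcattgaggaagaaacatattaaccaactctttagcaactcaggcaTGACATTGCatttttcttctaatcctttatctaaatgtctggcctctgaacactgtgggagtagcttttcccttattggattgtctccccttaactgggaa

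The libraries differed in depth of detection, and both replicate 1 libraries held transcripts of airway secretory cells. Between 3247 and 9194 genes reached 1 FPKM, the lowest in Krt15-negative replicate 1, and the estimated depth was 28.2 to 40.7 M fragments. Of 16 housekeeping genes, 2 read 0 in Krt15-negative replicate 1, 2 in Krt15-negative replicate 2 and none in the other 4, so a listed 0 can be a failed estimate. Basal keratinocyte markers were present in all 6 libraries, with sums over 9 genes of 3932 to 11102 FPKM in Krt15-negative and 3876 to 14080 in Krt15-positive ones. Suprabasal keratinocyte markers (13 genes) summed to 38006, 31770 and 9451 FPKM in Krt15-negative and 9009, 24733 and 53523.5 in Krt15-positive libraries. The suprabasal sum was above the basal one in every library, and the groups overlapped. Krtdap alone read 33634, 22532 and 0 FPKM against 7254, 13640 and 41287. Krt15 itself, whose promoter set the gate, read 2350, 6784 and 3412 FPKM in Krt15-negative and 3350, 9692 and 2420 in Krt15-positive libraries. The groups overlapped for Krt15, and in replicate 3 the GFP-positive library was the lower one, so group names below are those of the labels and the GFP gate. The 14 airway secretory markers summed to 85147 FPKM in Krt15-negative replicate 1 and 144128 in Krt15-positive replicate 1, against 27.5 to 71.9 in the other 4. Of these 14, 8 were higher in both replicate 1 libraries than in any other, and 7 were at 0 in all 4 others. Scgb1a1, which encodes the main secretory protein of club cells, stood at 18922 and 88098 FPKM in the replicate 1 libraries and at most 13.3 elsewhere. Fibroblast markers (11 genes) summed to 200.2 to 799 FPKM in Krt15-negative and 72.5 to 192 in Krt15-positive libraries. Dcn made up 167, 176 and 71.1 of the Krt15-positive sums of 172, 192 and 72.5, and read 13.9, 267 and 457 in Krt15-negative libraries. Of the 11, 9, 8 and 11 reached 1 FPKM in Krt15-negative libraries and 2, 3 and 2 in Krt15-positive ones. Leukocyte markers (12 genes) summed to 606 to 966 FPKM in Krt15-negative and 77.0 to 7281 in Krt15-positive libraries. Lyz2 made up 7279 of the highest leukocyte sum, that of Krt15-positive replicate 1. Without Lyz2 the other 11 leukocyte markers summed to 267, 966 and 461 FPKM in Krt15-negative and 2.13, 58.9 and 48.7 in Krt15-positive libraries, without overlap. The part of these cells in the differences below was not tested except where a value is given.

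None of the 31 genes passed the test between the groups. Of the 31, 28 had a mean of at least 1 FPKM and entered the limma fit over 9423 genes, in which 0% of genes were called at an adjusted p below 0.05 (0 genes). At an unadjusted p below 0.05, 3.18% of genes were higher (300) and 0.743% lower (70), and of the 28 none was higher and 1, Gstp1, lower. A difference above 0 means higher in the libraries labelled Krt15-positive, on the log2(FPKM + 1) scale, which understates changes of low genes. Of the 28, 19 (67.9%) were above 0, against 68.6% of all genes tested, and the median difference was 0.62, against 0.63. On the values as deposited these shares are near each other. With quantile normalization 21 of 28 were above 0 against 51.8% of all genes, and 16 of 28 with median-of-ratios (61.4% of all genes) and with upper-quartile scaling (62.6%). Leaving out Krt15-negative replicate 1 gave 13 of 28 above 0 (51.3% of all genes), and leaving out both replicate 1 libraries 11 (54.2%), with medians of -0.08 and -0.09 against 0.03 and 0.11 over all genes. In bulk samples, fewer cells of a type and less RNA per cell cannot be told apart.

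**Figure D1:**
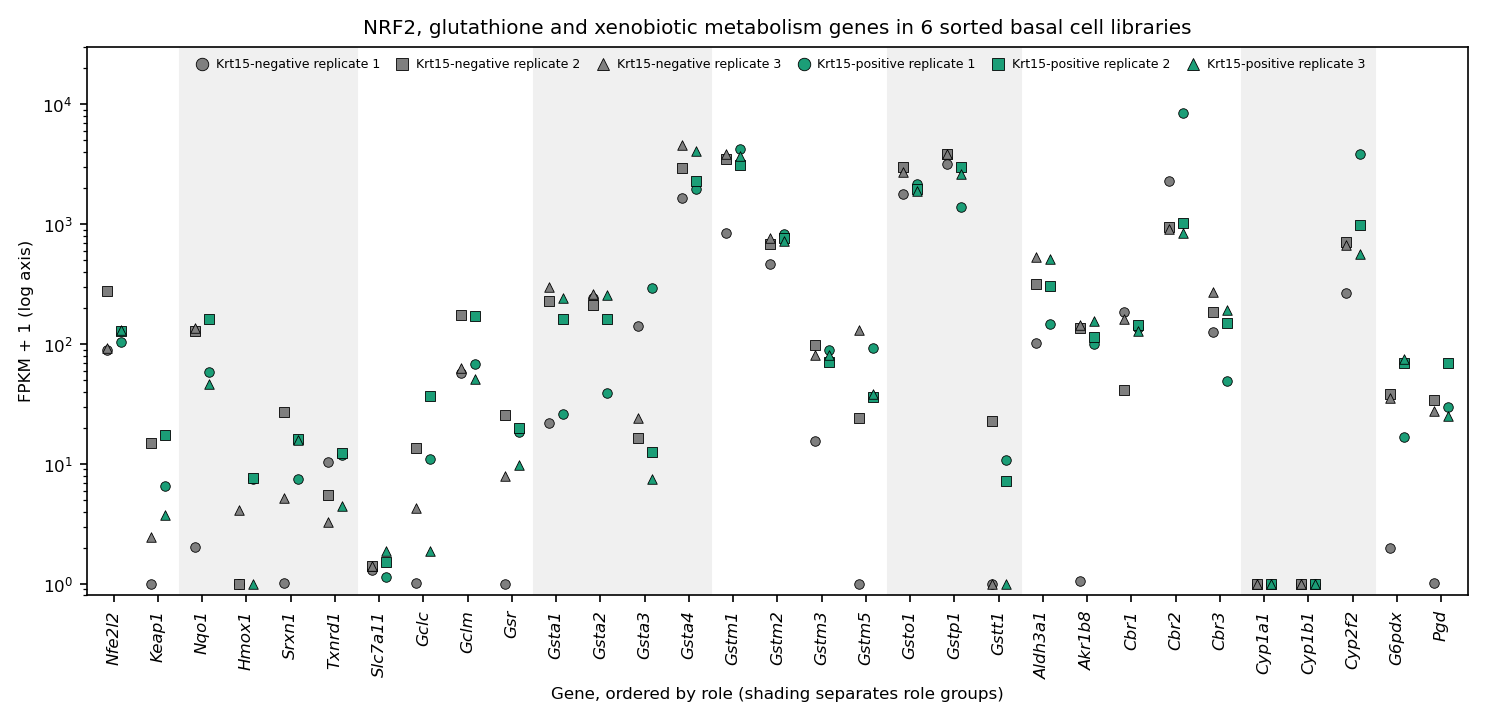
FPKM + 1 (log axis) of all 31 genes in each library, ordered by role with shading between role groups; grey symbols are Krt15-negative and green ones Krt15-positive libraries, and the symbol shape gives the replicate number. The transferases Gsta4, Gstm1, Gsto1 and Gstp1 lie near the top in every library, while Krt15-negative replicate 1 (grey circles) lies at the bottom for genes such as Akr1b8, Gsr and Pgd.

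Nfe2l2 did not pass the test, and its levels overlapped between the groups. It stood at 88.4, 278 and 92.3 FPKM in Krt15-negative replicates 1 to 3 and at 103, 126 and 129 in the Krt15-positive ones. The Krt15-negative replicate 2 library was the highest, and the groups overlapped. The difference was -0.14 (SE 0.72, 95% CI -1.71 to 1.43, limma adjusted p = 0.96). Its sign changed with Krt15-negative replicate 2 left out (0.39) and with both replicate 2 libraries left out (0.35). Keap1, its repressor, stood at 0, 14.1 and 1.46 FPKM against 5.55, 16.4 and 2.72. Each of the 3 Krt15-positive libraries was thus above its same-numbered Krt15-negative library for Keap1, which held for 3 of the 28 genes (Keap1, Txnrd1 and G6pdx) and for 20.9% of all genes tested. Its difference was 1.17 (SE 1.30, limma adjusted p = 0.82) and fell to 0.30 without Krt15-negative replicate 1, where it was listed at 0. Per length, Nfe2l2 was above Keap1 in every library.

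Of the classic NRF2 target enzymes, Nqo1 and Srxn1 were present in 5 of the libraries and close to 0 in Krt15-negative replicate 1, and neither passed the test. Nqo1, a quinone reductase, stood at 1.05, 127 and 134 FPKM in Krt15-negative and at 57.9, 162 and 45.1 in Krt15-positive libraries. Its difference of 1.21 (SE 1.47, limma adjusted p = 0.83) turned to -0.79 when Krt15-negative replicate 1 was left out and to -0.60 when both replicate 1 libraries were. Srxn1, sulfiredoxin, which repairs overoxidized peroxiredoxins, stood at 0.012, 25.9 and 4.21 FPKM against 6.52, 15.2 and 15.0. Its difference was 1.26 (SE 1.34, limma adjusted p = 0.81), or 0.08 without Krt15-negative replicate 1. Hmox1, heme oxygenase, was low, at 0, 0 and 3.17 FPKM against 6.42, 6.57 and 0. Its difference was 1.25 (SE 1.14, limma adjusted p = 0.79), with 0 listed in 3 libraries across both groups. With 1 library left out it ran from 0.76 (Krt15-positive replicate 2) and 0.77 (Krt15-positive replicate 1) to 1.94 (Krt15-negative replicate 3) and 2.22 (Krt15-positive replicate 3). Txnrd1, cytosolic thioredoxin reductase, did not follow this pattern and stood at 9.28, 4.53 and 2.26 FPKM against 10.9, 11.3 and 3.46, with Krt15-negative replicate 1 among the higher libraries. Txnrd1 was higher in the Krt15-positive library within each replicate number, though the groups overlapped.

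Among the genes of glutathione supply, the modifier subunit of the first enzyme was far more abundant than its catalytic subunit. Gclm, the modifier subunit of glutamate-cysteine ligase, stood at 56.3, 175 and 61.8 FPKM in Krt15-negative and 66.5, 172 and 50.6 in Krt15-positive libraries. Both replicate 2 libraries were the highest, and the groups overlapped. Gclc, the catalytic subunit, stood at 0.010, 12.5 and 3.28 FPKM against 9.90, 36.0 and 0.891. Both replicate 2 libraries were the highest for Gclc too, and its difference was 1.24 (SE 1.43, limma adjusted p = 0.82), or 0.27 without Krt15-negative replicate 1 and 0.23 without Krt15-positive replicate 2. Gsr, which regenerates reduced glutathione, stood at 0, 24.7 and 6.91 FPKM against 17.3, 19.1 and 8.88. The Gsr difference was 1.39 (SE 1.33, limma adjusted p = 0.80), or 0.11 with Krt15-negative replicate 1 left out and -0.016 with both replicate 1 libraries left out. Slc7a11, the cystine importer that feeds glutathione synthesis, was not tested, with values between 0.131 and 0.863 FPKM in the 6 libraries.

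Of the 6 members with a mean of at least 1000 FPKM, 4 were glutathione transferases (Gsta4, Gstm1, Gsto1 and Gstp1), and these ranked among the 255 highest genes of the table in every library. Summed over 11 transferases, the level was 8355, 14569 and 16464 FPKM in Krt15-negative and 11066, 11537 and 13610.5 in Krt15-positive libraries, with overlap. Reads of near-identical members (Gsta1 and Gsta2, Gstp1 and Gstp2, and the Gstm genes) may have been divided between them, so single values of these genes are uncertain. Gsta4, which detoxifies aldehydes of lipid peroxidation, stood at 1666, 2939 and 4546 FPKM against 1944, 2287 and 4086. Both replicate 3 libraries were the highest and both replicate 1 libraries the lowest for Gsta4. Gsta1 stood at 21.1, 228 and 296 FPKM against 25.1, 162 and 240.0, again lowest in both replicate 1 libraries. Gsta2 stood at 242, 212 and 259.7 FPKM against 38.2, 161 and 254, and only Krt15-positive replicate 1 was far from the rest. Its difference was -1.02 (SE 0.76, limma adjusted p = 0.79), or -0.23 without Krt15-positive replicate 1. All 4 alpha class genes had a difference below 0, as had 31.4% of all genes and 64.4% of those with a mean of at least 100 FPKM. With only Krt15-negative replicate 1 dropped, the Gsta3 difference was 0.60. Once Krt15-positive replicate 1 was dropped as well, the Gsta3 difference was again below 0, at -1.03.

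Of the mu class, which also conjugates electrophiles, Gstm1 stood at 836, 3473 and 3833 FPKM in Krt15-negative and 4223, 3093 and 3670 in Krt15-positive libraries. Gstm2 stood at 466, 681 and 770 against 833, 766 and 721, and Gstm3 at 14.5, 97.3 and 80.6 against 88.2, 69.6 and 79.7. All 4 mu class genes were lowest in Krt15-negative replicate 1, as were 65.4% of all genes tested, and the 5 other libraries of Gstm1, Gstm2 and Gstm3 lay close together. Without it the differences of Gstm1, Gstm2 and Gstm3 were -0.0063, 0.09 and -0.17. Gstm5 was listed at 0 in that library and stood at 23.3 and 130.3 in the other Krt15-negative ones, against 92.3, 35.5 and 37.3. The Gstm5 difference of 1.78 (SE 1.54, limma adjusted p = 0.79) turned to -0.16 with Krt15-negative replicate 1 left out and to -0.60 with both replicate 1 libraries left out.

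Gstp1, the pi class transferase, was the single gene of the 28 whose groups did not overlap, and it was lower in the libraries labelled Krt15-positive. It stood at 3198, 3866 and 3821 FPKM in Krt15-negative and 1380, 3000.1 and 2637 in Krt15-positive libraries. Among all genes tested, 2.44% lay lower without overlap and 8.85% higher, and none of the 28 lay higher. Among the 1034 genes whose mean reached 100 FPKM, as that of Gstp1 did, 9.96% lay lower without overlap and 1.16% higher. Gstp1, given in full after its values were seen, had a difference of -0.70 (SE 0.29, 95% CI -1.34 to -0.06, unadjusted p = 0.034, limma adjusted p = 0.79). The difference was -0.36 without Krt15-positive replicate 1, -0.45 without both replicate 1 libraries and -0.25 with quantile normalization, in which the groups overlapped, and -1.20 and -1.17 with median-of-ratios and upper-quartile scaling. Its near-identical neighbor Gstp2 stood at 1251, 1426 and 1439 FPKM against 545, 1093 and 981, also without overlap, and reads of both genes may be shared. Gsto1, an omega class thiol transferase, stood at 1769.6, 3013 and 2704 FPKM against 2143, 1945 and 1879.5. Here Krt15-negative replicate 1 was the lowest and the other 2 Krt15-negative libraries the highest. Gstt1, of the theta class, stood at 0, 22.0 and 0 FPKM against 9.71, 6.19 and 0.

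**Figure D2:**
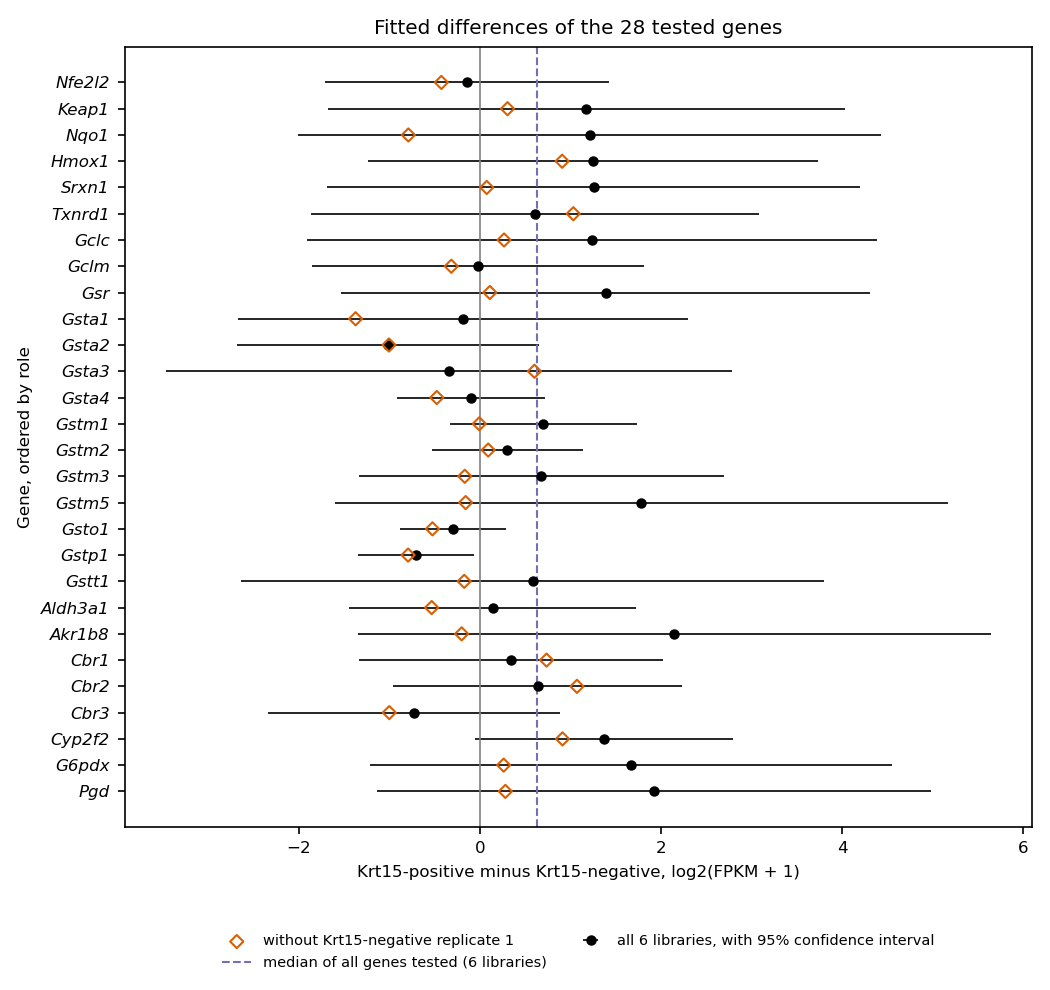
Fitted difference of each of the 28 tested genes (x axis, log2(FPKM + 1), Krt15-positive minus Krt15-negative) with its 95% confidence interval from limma (black), and the value without Krt15-negative replicate 1 (orange diamonds); the dashed line is the median of all genes tested, 0.63. All intervals but that of Gstp1 include 0, and the diamonds of 8 genes (Nqo1, Akr1b8, Gstm5, Gsta3, Aldh3a1, Gstt1, Gstm3 and Gstm1) lie on the other side of 0.

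Aldehyde and carbonyl enzymes were expressed in both groups at overlapping levels, and none passed the test. Aldh3a1, an aldehyde dehydrogenase, stood at 100.1, 317 and 532 FPKM in Krt15-negative and 145, 304 and 514 in Krt15-positive libraries. For Aldh3a1 same-numbered libraries lay near each other, lowest in both replicate 1 and highest in both replicate 3 libraries. Akr1b8, an aldo-keto reductase, stood at 0.056, 134 and 142 FPKM against 98.1, 114 and 154. Its difference of 2.15 (SE 1.60, limma adjusted p = 0.79) turned to -0.20 with Krt15-negative replicate 1 left out and to -0.058 with both replicate 1 libraries left out. Cbr1, a carbonyl reductase, stood at 182, 40.2 and 160.4 FPKM against 135, 142 and 128, with Krt15-negative replicate 2 as the low library. Its paralog Cbr3 stood at 125, 186 and 269 FPKM against 48.2, 148 and 191. Cbr3 was lower in the Krt15-positive library within each replicate number, as were Gsta2 and Gstp1, 3 of the 28 genes (10.7%) against 6.34% of all genes tested. All 3 have a mean of at least 100 FPKM, where the share was 3 of 14 members (21.4%) against 28.6% of all such genes.

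Cbr2, Cyp2f2, Gsta3, Gstm1 and Gstm2 were at their highest in Krt15-positive replicate 1, the library with the most airway secretory transcripts, 5 of the 28 genes (17.9%) against 10.5% of all genes tested. Cbr2, a carbonyl reductase known from lung, stood at 2272, 937 and 905 FPKM in Krt15-negative and 8499, 1019 and 838 in Krt15-positive libraries. Gsta3, an alpha class transferase, stood at 141, 15.5 and 23.0 FPKM against 289.8, 11.7 and 6.50. For Cbr2 and Gsta3 both replicate 1 libraries lay above the other 4. Cyp2f2, a cytochrome P450 known from club cells, stood at 263, 708 and 663 FPKM against 3845, 988 and 566. Unlike Scgb1a1, Cyp2f2 was lowest in Krt15-negative replicate 1. In the 4 libraries where Scgb1a1 was at most 13.3 FPKM, Cyp2f2 still stood at 566 to 988 and Cbr2 at 838 to 1019. The Cyp2f2 difference was 1.37 (SE 0.65, 95% CI -0.05 to 2.79, limma adjusted p = 0.79), or 0.58 without Krt15-positive replicate 1 and 0.12 without both replicate 1 libraries.

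**Figure D3:**
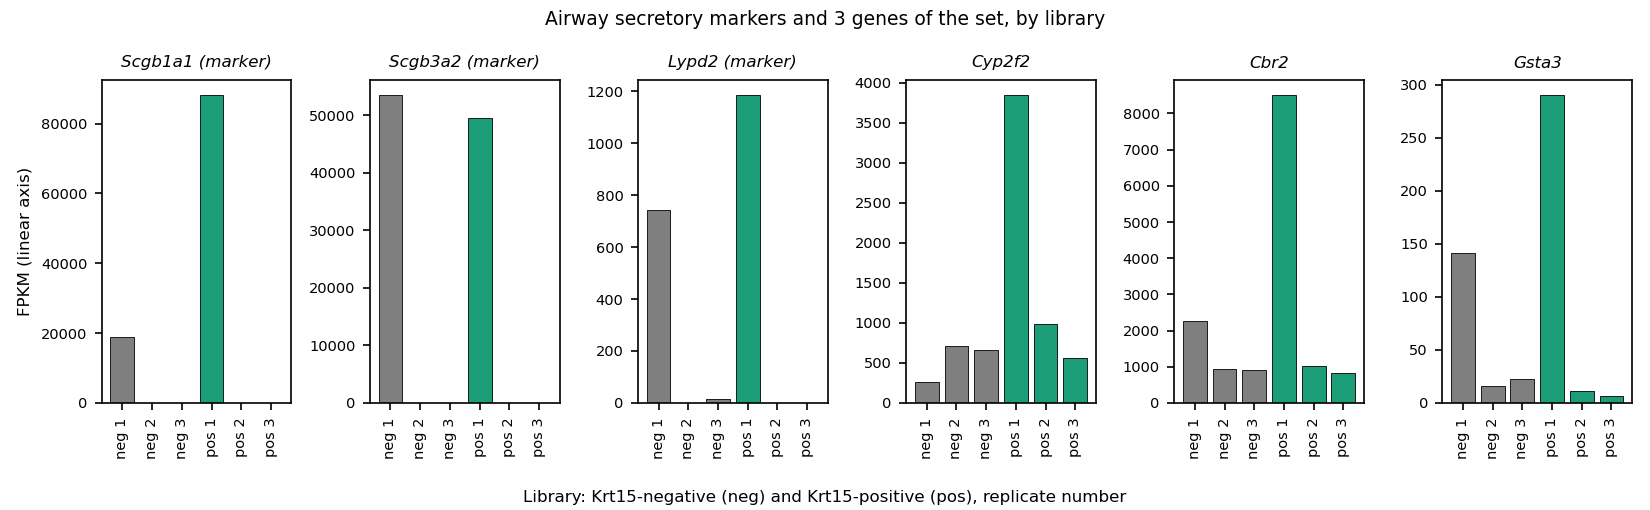
FPKM (linear axes, each starting at 0) by library of the airway secretory markers Scgb1a1, Scgb3a2 and Lypd2 and of Cyp2f2, Cbr2 and Gsta3; grey bars are Krt15-negative and green bars Krt15-positive libraries. The markers stand in the replicate 1 libraries, while Cyp2f2 and Cbr2 keep 566 FPKM or more in the replicate 2 and 3 libraries.

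The cytochromes of the aryl hydrocarbon receptor response were listed at or near 0. Cyp1a1, the classic target of this receptor, was listed at 0 in all 6 libraries, and Cyp1b1 reached 0.0045 FPKM in Krt15-negative replicate 2 and was listed at 0 in the other 5. Neither was tested. Of 6 further genes of that receptor pathway, 4 were tested, none was called, and all 4 had a difference above 0 (median 1.06), as had 68.6% of all genes. Of these 4, 2 were listed at 0 in Krt15-negative replicate 1. Ahr, the receptor, stood at 0, 4.98 and 0.282 FPKM against 7.07, 3.87 and 5.63, and its partner Arnt at 0, 4.86 and 3.62 against 3.39, 5.70 and 8.08.

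Of the oxidative pentose phosphate pathway, which makes NADPH for these reductases, G6pdx and Pgd had fitted differences above 0 but did not pass the test. G6pdx, the first enzyme of the pathway, stood at 0.972, 37.6 and 34.4 FPKM in Krt15-negative and 15.7, 68.0 and 74.7 in Krt15-positive libraries. G6pdx was higher in the Krt15-positive library within each replicate number, by 3.08, 0.84 and 1.10 on the log2(FPKM + 1) scale. Its fitted difference was 1.67 (SE 1.32, limma adjusted p = 0.79), or 0.26 with Krt15-negative replicate 1 left out and 0.97 with both replicate 1 libraries left out. Pgd, the next dehydrogenase of the pathway to yield NADPH, stood at 0.016, 33.4 and 26.5 FPKM against 29.0, 68.5 and 24.01. The Pgd difference was 1.92 (SE 1.40, limma adjusted p = 0.79), or 0.28 without Krt15-negative replicate 1. Pgls, of the same pathway but from the list of other NADPH supply genes below, went the other way. It stood at 590, 408 and 325 FPKM against 248, 342 and 214, with overlap. The Pgls difference was -0.70 (SE 0.50, limma adjusted p = 0.79) and ran from -1.19 to -0.38 over all settings.

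Krt15-negative replicate 1 held the lowest value for 20 of the 28 genes (71.4%), against 65.4% of all genes tested, and 5 of the 28 were listed at 0 there (17.9%), against 42.4% of all genes tested. By level, it was lowest for 9 of the 14 members with a mean of at least 100 FPKM (64.3%, against 32.5% of all such genes) and for 11 of the 14 below (78.6%, against 69.4%). Among the 14 members at the higher level the median difference was 0.02, against -0.22 for the 1034 genes of such a mean. Among the 14 members below 100 FPKM it was 1.22, against 0.76 for all 8389 tested genes below that mean, these members included. The 8389 genes reach down to a mean of 1 FPKM and were not matched to the members by level. The spread between libraries within a group was smallest for Gstm2, Gsto1 and Gstp1, with a pooled SD of 0.28, 0.30 and 0.44 on the log2(FPKM + 1) scale. It was largest for Akr1b8 (2.88), Gstm5 (2.58) and Nqo1 (2.55).

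None of the 134 other genes of the pathway, in 9 lists, was called either. Of these, 111 were tested, 72 (64.9%) had a difference above 0 against 68.6% of all genes, and the median was 0.62. In 2 of the 9 lists the median was below 0. Of 15 tested glutathione peroxidases and other glutathione enzymes, 11 were below 0 (median -0.28), and of 11 other glutathione transferases, 6 (median -0.15). Of 17 thioredoxin, peroxiredoxin, superoxide dismutase and catalase genes, 6 were below 0 (median 0.43). Txn1, thioredoxin, stood at 1433, 1207 and 1429 FPKM in Krt15-negative and 708, 848 and 938 in Krt15-positive libraries, without overlap. The Txn1 difference was -0.71 (SE 0.32, limma adjusted p = 0.79), or -0.56 without both replicate 1 libraries, -0.33 with quantile normalization and -1.20 with median-of-ratios scaling. Msra, a methionine sulfoxide reductase, stood at 0, 0 and 15.0 FPKM against 15.0, 22.6 and 29.7. The Msra difference was 3.16 (SE 1.33, limma adjusted p = 0.79). Glrx3, a glutaredoxin, stood at 379.6, 121 and 137 FPKM against 69.3, 82.3 and 96.5, also without overlap. Of the 111 tested genes of the 9 lists, 6 (5.41%) lay higher without overlap and 6 (5.41%) lower. Among all genes tested these shares were 8.85% and 2.44%. Of the 1034 genes averaging 100 FPKM or more, as Txn1 and Glrx3 did, 9.96% lay lower. Genes named from the lists are those of smallest p, a choice that favors genes without overlap.

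The remaining lists are read against the 68.6% of all genes that had a difference above 0. Of 9 tested NRF2 partners and repressors, 7 were above 0 (median 1.34). Mafk, a small Maf partner of NRF2, stood at 0.025, 5.59 and 3.12 FPKM in Krt15-negative and 6.32, 7.15 and 16.4 in Krt15-positive libraries, without overlap. The Mafk difference was 1.74 (SE 1.18, limma adjusted p = 0.79), or 0.96 without Krt15-negative replicate 1 and 0.54 with quantile normalization. Sqstm1, the autophagy receptor that binds Keap1, stood at 0.037, 71.8 and 27.5 FPKM against 61.6, 52.9 and 50.3, and its difference was 2.11, or 0.29 without Krt15-negative replicate 1. Of 33 other phase I and II enzymes, 25 were above 0 (median 0.93), and of 8 transporters, 7 (median 0.68). Cyp4b1, a cytochrome P450, stood at 0.342, 64.2 and 18.8 FPKM against 378, 85.8 and 26.1, highest in the same library as Cyp2f2. Abcc1, an exporter of glutathione conjugates, stood at 0.057, 2.09 and 0.359 FPKM against 6.95, 3.37 and 13.2, without overlap. The Abcc1 difference was 2.27 (SE 1.07, limma adjusted p = 0.79), or 1.94 without both replicate 1 libraries and 0.64 with quantile normalization. Of 8 tested genes of other NADPH supply, 5 were above 0 (median 0.46), and Taldo1, transaldolase, stood at 531, 589.7 and 429.7 FPKM against 199, 405 and 352, without overlap. Of 6 heme and iron genes, 4 were above 0 (median 0.29), and Blvrb, a biliverdin reductase, stood at 0, 57.4 and 132 FPKM against 167, 107 and 95.3.

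**Figure D4:**
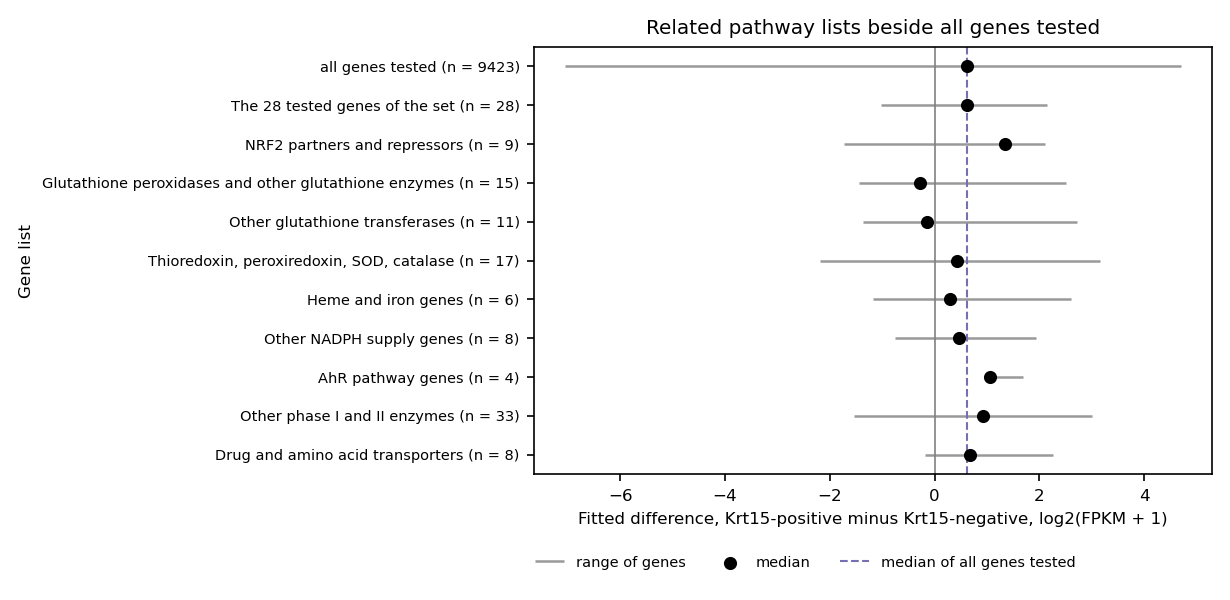
Median (points) and range (lines) of the fitted difference, Krt15-positive minus Krt15-negative on the log2(FPKM + 1) scale, for all genes tested, the 28 tested genes of the set and the 9 related lists, with the number tested in brackets. The medians of the set and of all genes are 0.62 and 0.63, and the lists run from -0.28 for glutathione peroxidases to 1.34 for NRF2 partners.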

How the data were processed

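RNA of 6 sorted libraries, 3 per group, was measured by RNA-seq. A SMART-Seq v4 kit, which does not mark strand, made cDNA from cells with no RNA extraction, per the labels' protocols. The authors deposited one table of FPKM per gene and library, which its title calls counts although the values are not whole. The tools named are Cufflinks 2.2.1, STAR 2.5 and DESeq2, on build mm9, per the submitters' processing notes, which give no role. The annotation is not given in the sources used here. Rows with a date for a symbol (27) were left out, which left 24016 genes, and all value columns matched a library. Depth was estimated from the single-fragment step of FPKM times length in 2172 genes with a single transcript of at least 1500 bp, and is approximate.

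The 9423 genes averaging at least 1 FPKM were tested as log2(FPKM + 1) by limma (3.58.1, R 4.3.3) with a variance trend and group as the only term, since a count model does not suit FPKM. P-values were adjusted by Benjamini-Hochberg over all 9423 genes. The fit was run on simulated data, where calls of changed genes were required only at a spread smaller than that of these data. That run does not show what the fit could detect at the real spread. Separate animals per library are not stated in the labels, so p-values reflect only how these libraries vary, and that may be technical. The members and gene lists were chosen with earlier results of these data known, and the housekeeping list was written after the data were seen. Of 89 marker symbols, 1 was matched through a synonym. Every library's value is given for members with a mean of at least 1 FPKM. A fitted difference is given for Nfe2l2, Keap1, members with an absolute difference of at least 1, and Gstp1, and at most 2 genes of smallest p are named per pathway list. Alternatives were other pseudocounts, filters and scalings, library weights, a replicate block and leaving out libraries.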

Additional observations from a re-analysis of the deposited data

How the results depend on the processing

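Under all 18 alternatives run, none of the 28 tested genes and none of the related pathway genes was called by limma. Over all genes, 8 were called with library weights and 1 without Krt15-negative replicate 2, and 0 to 1 over the settings that left out libraries. The number of members above 0, 19 of 28, was between 11 and 21 over the settings that left out libraries, with 11 without both replicate 1 libraries. Scaling moved the median difference of the members from 0.62 to 0.18 (median of ratios), 0.20 (upper quartile) or 0.48 (quantile), and library weights to 0.10, while that of all genes went from 0.63 to 0.43, 0.48, 0.04 and 0.17. Members lower without overlap numbered 2 with median-of-ratios scaling and 0 with quantile normalization, and 2 were then higher without overlap (Gstm1 and Gstm2). Of all genes, 3.41% were lower without overlap with median-of-ratios scaling, and 4.91% lower and 4.3% higher with quantile normalization. Members higher within all 3 replicate numbers were 1 with median-of-ratios scaling and 7 with quantile normalization, against 17.3% and 12.6% of all genes. Members lower within all 3 were 8 with median-of-ratios and 7 with upper-quartile scaling, against 10.6% and 8.81% of all genes. These shares are not matched by level, and 14 of the 28 members have a mean of at least 100 FPKM. Of all genes of such a mean, 28.6% were lower within all 3 on the values as deposited. That share was not counted with scaling.

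Of 14 single genes with a fitted difference, 5 changed sign under some setting, and the cause was not tested. With library weights Nfe2l2 was at 0.093, Nqo1 at -0.43 and Gstm5 at -0.51. Without Krt15-negative replicate 1, Nqo1 was at -0.79, Gstm5 at -0.16 and Akr1b8 at -0.20. Without both replicate 1 libraries they were at -0.60, -0.60 and -0.058, and Gsr at -0.016. Without Krt15-negative replicate 2 Nfe2l2 was at 0.39, and without both replicate 2 libraries at 0.35. Over all settings that left out libraries, the highest values were 2.59 for Nqo1, 3.56 for Gstm5 and 3.34 for Akr1b8, 2.23 and 3.36 being the highest for Nqo1 and Gstm5 with a single library left out. Without Krt15-negative replicate 2 Keap1 was at 2.26, Srxn1 at 2.44, Gsr at 2.45 and Sqstm1 at 3.36, and without Krt15-positive replicate 3 Gclc was at 2.37 and Gsta2 at -1.58.

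Each replicate number has a library in both groups, so the replicate block cannot change a fitted difference. The 19 members above 0 are therefore the same with it, which is no check of that count. The block can change the SE. Among the single genes with a fitted difference, the SE fell for all but Nfe2l2 and Hmox1. Called members were 0 with the block, as without it. The numbers were not taken as pairs in the main fit because the labels name no factor but the group. Deviations from the group mean of same-numbered libraries correlated at 0.13, 0.17 and 0.01 for replicates 1 to 3. Those of differently numbered libraries correlated at -0.16 to 0.03. Whether same-numbered libraries share an origin was not tested. The labels give same-numbered libraries a shared code and do not say what it stands for. Where leaving out both libraries of a replicate number left 2 against 2, the spread rests on few degrees of freedom.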
